A study of Mus musculus with 3 samples.

Results

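Stroma7 is a cluster of fibroblast-like cells in mouse melanoma, named by the authors, and 94.9% of its cells came from 1 tumor that had progressed under vemurafenib. Its members were the 468 cells, of 12670 in all, that carry the name Stroma7 in the deposited table of cell identities. The progressed tumor held 444 of them, the untreated tumor 18 and the regressed tumor 6. They were compared with the cells of the other 9 clusters named Stroma, first within the progressed tumor, where 2978 such cells were captured.

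All 3 tumors were melanomas of C57BL/6 mice, 1 per group, profiled by droplet single-cell RNA sequencing of transcript ends. In this model Braf LSL.V600E is recombined by Tyr.CreER, a tamoxifen-activated Cre driven in the melanocyte lineage, and tumors were induced by 4-OH tamoxifen on the flank skin of young adults. Some animals also carried the reporter Rosa26 LSL.tdTomato, and which of the genotypes each sequenced tumor had is not in the labels. Stromal cells are the host's own, and by design Cre is not active in fibroblasts. Vemurafenib, an oral inhibitor of mutant Braf, had been given to the animals with the regressed and the progressed tumor, for a short course in the former and until regrowth in the latter.

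Fibroblasts build and remodel the collagen-rich matrix of the dermis. They secrete fibrillar collagens, the enzymes that crosslink them and the small leucine-rich proteoglycans that coat the fibrils, and in tumors they also release chemokines, complement factors and growth factors. Skin fibroblasts differ by depth in the dermis and by niche, such as the papillary layer below the epidermis, the reticular layer, the adventitia around vessels and the dermal papilla of hair follicles, and marker genes are known for each.

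The untreated, regressed and progressed libraries held 4095, 3726 and 4849 cells, with a median of 4496, 2658 and 4566 unique molecular identifiers (UMIs, each standing for 1 captured RNA molecule) per cell. Stroma7 was measured with 1820885 UMIs in the progressed tumor, 77767 in the untreated and 6106 in the regressed one, so its values in the last rest on very few molecules. Levels are given in CPM, the counts of the summed cells of a group scaled to a total of 1000000 UMIs, with exact Poisson 95% intervals, ratios on the log2 scale with exact conditional binomial 95% intervals, and shares with exact Clopper-Pearson 95% intervals. These intervals cover counting error only. With 1 tumor per group there is no spread between animals, no test between tumors was possible, and tumor, library and treatment cannot be told apart. A cluster set against its neighbours is a description too, since the clusters were drawn from the same expression values.

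In the progressed tumor Stroma7 made up 12.97% of stromal cells (11.9 to 14.1, 444 of 3422). It was 0.685% of stromal cells in the untreated tumor (0.406 to 1.08, 18 of 2628) and 0.313% in the regressed tumor (0.115 to 0.680, 6 of 1918). The intervals of the untreated and the regressed tumor overlap each other, and that of the progressed tumor lies above both. Of all cells captured, Stroma7 took 9.16%, 0.440% and 0.161% in the progressed, untreated and regressed tumor. Because nearly all of its cells came from 1 library, a cell state and a property of that library cannot be told apart from these shares.

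**Figure D1:**
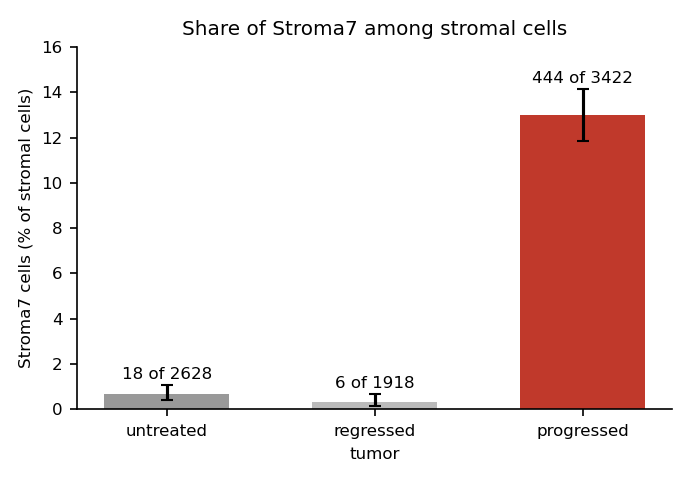
Stroma7 cells as a percent of all cells of the 10 Stroma clusters (vertical axis) in each of the 3 tumors, with exact 95% intervals as error bars and cell numbers above the bars. The progressed tumor stands at 12.97%, and the other two stand below 1%.

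The cells carried fibroblast markers. Pdgfra, the receptor for platelet-derived growth factor A that marks skin fibroblasts, was at 299 CPM (275 to 326) in progressed Stroma7 and 206 CPM in the other Stroma cells, against 7.11 CPM in macrophages of the same tumor. Fap, a surface protease of activated fibroblasts, was at 66.5 CPM (55.1 to 79.4) against 72.4 CPM. Col1a1, the alpha 1 chain of type I collagen, was at 2351 CPM (2281 to 2423), 0.303 times the 7757 CPM of the other Stroma cells, and macrophages were at 496 CPM. Pdgfra had a UMI in 55.6% of Stroma7 cells and Fap in 21.4%, against 1.47% and 1.77% of macrophages, which have a lower median depth of 3450 UMIs against 3784.5.

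Summed markers of other cell types were within or near the range of the other Stroma clusters. The 8 immune genes summed to 92.8 CPM in Stroma7, 79.8 to 132 CPM in the 4 other Stroma clusters with at least 30 cells (Stroma3 to Stroma6), and 10859 CPM in macrophages. The 7 endothelial genes summed to 36.2 CPM against 4470 CPM in blood vessel cells, with Pecam1 at 1.10 CPM. The 9 mural genes, which mark pericytes and smooth muscle, reached 124 CPM against 228 CPM in other Stroma, and Myh11 and Higd1b were at 0 UMIs. Melanocyte genes and the 2 transgene features summed to 61.0 CPM, 21.8 to 68.2 CPM in the 4 clusters and 4964 CPM in Tumor1 cells. Of these 8 features Dct, Tyrp1, Tyr and tdTomato were at 0 UMIs. The 1 feature with a mean of at least 20 CPM had a log2 ratio of 0.52 to other Stroma. Whether this tumor carried the tdTomato reporter is not known, so nothing is read from its 0 UMIs. The 5 red blood genes were at 0 UMIs, and the 7 keratinocyte genes were at 239 CPM against 246 to 294 CPM in the 4 clusters and 282 CPM in macrophages. The 6 Schwann genes summed to 55.5 CPM, above Stroma3, Stroma4 and Stroma6 (10.9, 23.4 and 26.9 CPM) and below Stroma5 (104 CPM). They reached 1621 CPM in Tumor1 cells. The defining markers of fibroblasts were thus present, and the summed markers of other cell types were within or near the range of the 4 clusters.

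Stroma7 cells were slightly shallower than the other stromal cells of the tumor, with a median of 3784.5 against 4535 UMIs, and 602 against 658 genes at 1000 UMIs per cell. Mitochondrial transcripts took 1.09% against 1.49% of a cell's UMIs (medians), and ribosomal protein transcripts 4.16% against 5.46%. Only 1 of the 444 cells held under 1000 UMIs.

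The transcripts of Apod, Dcn and Gsn took a larger share of the UMIs of Stroma7 than of the 4 other clusters. Apod, apolipoprotein D, a lipocalin that binds small lipids, took 8.17% of all UMIs and was the most abundant transcript. Dcn, decorin, a proteoglycan that binds collagen fibrils, took 3.68%, and Gsn, gelsolin, an actin-severing protein, took 2.45%. The nuclear RNA Malat1 ranked between Apod and Dcn, at 5.77%. In the other Stroma cells the shares of Apod, Dcn and Gsn were 1.69%, 1.45% and 0.870%. Together the 3 genes made up 14.3% of the UMIs of Stroma7, 6.29% in Stroma5 and 1.99 to 2.92% in Stroma3, Stroma4 and Stroma6, where Malat1 ranked first. The 24 collagen genes of the lists used here showed the opposite order, at 1.14% of the UMIs of Stroma7 and 3.81% of other Stroma, with Stroma4 next lowest at 2.33%. On GRCm38 these genes lie on chromosome 16 at 31296192 to 31314808 (Apod), chromosome 10 at 97479500 to 97518163 (Dcn) and chromosome 2 at 35256359 to 35307902 (Gsn).

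Every Stroma7 cell of the progressed tumor held UMIs of Apod, Dcn and Gsn, but in amounts that varied widely. Each of these genes was also found in 98.9 to 100% of the cells of Stroma3 to Stroma6, so their presence does not set Stroma7 apart. Apod ranged from 2426 to 283162 CPM per cell, with a median of 62406 and quartiles of 32197 and 97310. In Stroma5 the median was 28256 CPM, and 45.1% of its cells lay at or above the lower quartile of Stroma7. In Stroma4, Stroma6 and Stroma3 the medians were 2818, 2732 and 2371 CPM, and 1.57%, 0.0797% and 0% of cells reached that quartile. The cells of Stroma7 and Stroma5 thus overlapped broadly in Apod, and few cells of the other 3 clusters reached the same range.

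For Dcn the median was 31598 CPM in Stroma7 and 9139 to 13390 CPM in the 4 clusters, of whose cells 16.1 to 18.8% reached the lower quartile of Stroma7. For Gsn it was 22858 CPM against 4126 to 8894 CPM, and 9.68% (Stroma5) to 33.5% (Stroma6) of cells reached the lower quartile of Stroma7. Col1a1, Col1a2 and Col3a1, the chains of type I and type III collagen, together had a median of 5595 CPM in Stroma7, 11697 in Stroma4, 19152 in Stroma3, 27241 in Stroma5 and 27742 in Stroma6. Of the Stroma5 cells, 5.70% were at or below the upper quartile of Stroma7 for these collagens, and of the Stroma4 cells 41.8%. Stroma7 and Stroma5, which overlapped in Apod, were thus far apart in collagen.

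**Figure D2:**
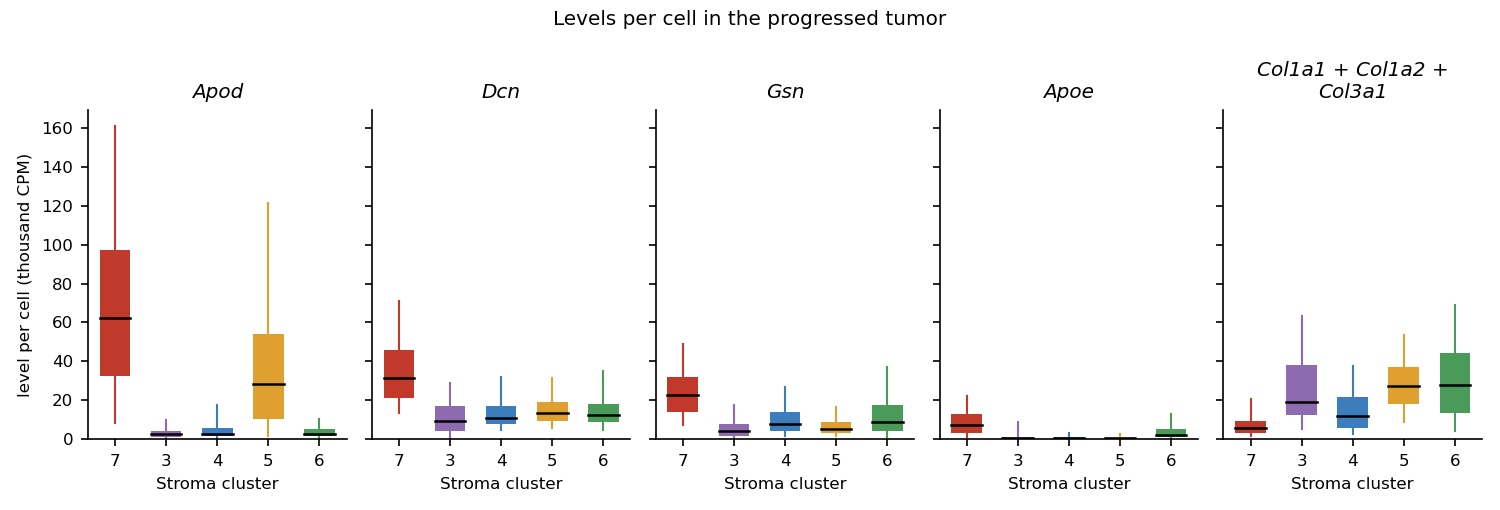
Levels of Apod, Dcn, Gsn, Apoe and the sum of Col1a1, Col1a2 and Col3a1 per cell in units of 1000 CPM (vertical axis) for Stroma7 and the 4 other Stroma clusters of at least 30 cells in the progressed tumor. Boxes span the quartiles, black lines are medians and thin lines run from the 5th to the 95th percentile, and Stroma7 has the highest median of the first 4 genes and the lowest median of the collagens.

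Across the 444 cells Spearman's rho of Apod was 0.55 with Dcn, 0.52 with the cell's total UMIs and 0.064 with the 3 collagens. Here Dcn and the collagens were taken as shares of each cell's UMIs without Apod. The rho of the 3 collagens with the total UMIs was 0.30. The points are cells of 1 library that share a total of UMIs, so these values are descriptive. The genes whose counts varied most beyond what each cell's total predicts were Apod, Malat1, Dcn, Gsn, Mgp, Cst3, Apoe and Ccl2. The variance of Apod was 128 times the expected one, that of Malat1 70.1 times, that of Dcn, Gsn, Mgp (matrix Gla protein, an inhibitor of calcification) and Cst3 (cystatin C, a protease inhibitor) 29.7 to 33.9 times and that of Apoe 24.5 times. Ccl2, a chemokine for monocytes, was uneven in another way, with 40.5% of its UMIs in the 10 cells that held most of it and a UMI in 41.4% of cells, against 79.1% of macrophages.

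Over the whole transcriptome 6390 genes had a mean of at least 20 CPM, of which 154 (2.41%) were at least 2-fold higher in Stroma7 than in the other Stroma cells and 376 (5.88%) at least 2-fold lower. The median log2 ratio over these genes was -0.17, and 29.1% of the genes past 2-fold were higher. With Apod, Dcn and Gsn taken out of the totals, an alternative chosen after seeing the data, the median was -0.0072, 220 genes were higher and 288 lower, so that 43.3% of them were higher. Stroma5 was the most alike of the 4 clusters, with a rank correlation of 0.872 across genes (genes are not independent replicates) and 176 genes (2.8%) higher and 283 (4.5%) lower in Stroma7. Stroma4 followed at 0.856, Stroma6 at 0.759 and Stroma3 at 0.710, with 203, 307 and 416 genes (3.14%, 4.87% and 6.47%) higher and 458, 607 and 822 (7.09%, 9.62% and 12.8%) lower.

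Among genes at 100 CPM or more in Stroma7, the 15 with the highest ratio were Myoc, Vit, Spp1, Pcp4l1, Abca6, Vwa1, Stxbp6, Tsc22d3, Apoe, Cyp26b1, Klf15, Apod, Spaar, Prxl2a and Gpc3. In 14 of them Stroma7 stood above each of the 4 other clusters. The exception was Cyp26b1, an enzyme that breaks down retinoic acid, which was at 222 CPM in Stroma7 and 430 CPM in Stroma3. For 9 of the 15 genes Stroma5 was the nearest cluster.

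Several of the leading genes encode matrix and secreted proteins. Myoc, myocilin, a secreted glycoprotein known from the drainage tissue of the eye, was at 172 CPM (154 to 193) in Stroma7 against 11.03 CPM in other Stroma, a log2 ratio of 3.97 (3.69 to 4.24). It was found in 27.0% of Stroma7 cells and 1.18% of macrophages, and 10 cells held 34.1% of its UMIs. Vit, vitrin, a matrix protein, was at 456 CPM (426 to 488) against 43.4 CPM, in 68.0% of cells and 1.77% of macrophages. Vwa1, a matrix protein with a von Willebrand A domain, was at 645 CPM (608 to 683) against 109 CPM. Gpc3, glypican 3, a cell-surface heparan sulfate proteoglycan, was at 1692 CPM (1633 to 1753) against 419 CPM, in 90.3% of cells and 12.7% of macrophages. Spp1, osteopontin, was at 554 CPM (520.5 to 589) against 69.8 CPM, in 50.5% of cells, and at 75.1 CPM in macrophages, in 10.03% of which it was found. For both Vit and Spp1 the next cluster lay well below, at 72.8 CPM in Stroma5 and 114 CPM in Stroma6 respectively.

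Lipid-handling genes formed another part of the list. Apoe, apolipoprotein E, a lipid carrier, was at 9093 CPM (8955 to 9232) in Stroma7, 3353 CPM in Stroma6 and 856 to 1307 CPM in the other 3 clusters. Macrophages held 35231 CPM of Apoe, and their part in the Apoe of Stroma7 was not tested. Abca6, a transporter of the ABCA subfamily, was at 230 CPM (208 to 253) against 37.2 CPM, and Apod at 81669 CPM (81254 to 82085) against 16933 CPM.

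Regulators of transcription and stress were represented by Tsc22d3, a leucine zipper protein induced by glucocorticoids, at 512 CPM (479.5 to 546) against 91.9 CPM, and by Klf15, a Krüppel-like factor also induced by glucocorticoids, at 116 CPM (101 to 133) against 23.8 CPM. The remaining genes were Pcp4l1 (a small calmodulin-binding-like protein), Stxbp6 (a SNARE-binding protein), Spaar (a regulatory micropeptide) and Prxl2a (a peroxiredoxin-like protein), at 104 to 197 CPM in Stroma7 and 16.6 to 45.3 CPM in other Stroma. Gm12216, a predicted gene, was 1 of the 6 with the highest ratio to the next cluster, at 150 CPM against 49.3 CPM in Stroma4.

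The 10 genes with the lowest ratio were Mmp3, Cilp, Dpt, Clec3b, Gpm6b, Postn, Nrep, Cxcl14, Gdf10 and Ptn. Mmp3, stromelysin 1, a matrix protease, was at 8.24 CPM (15 UMIs, 4.61 to 13.6) against 439 CPM, a log2 ratio of -5.74 (-6.57 to -5.01), with 1079 CPM in Stroma6. Cilp (a cartilage matrix protein), Dpt (dermatopontin, a dermal matrix protein), Clec3b (tetranectin) and Gpm6b (a membrane glycoprotein) were at 6.59 to 9.89 CPM, each found in 2.70 to 4.05% of cells. In macrophages, which should lack them, the same 4 genes were found in 2.06 to 7.37% of cells, so no expression in Stroma7 is read from such shares. Cxcl14, a chemokine of the dermis, was at 164 CPM (146 to 183) against 1870 CPM, and Postn, periostin, at 28.6 CPM (21.3 to 37.4) against 379 CPM.

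Stroma5 was the nearest cluster for 9 of the 10 low genes. Mmp3 was at 15.2 CPM there, Cilp at 8.85, Dpt at 12.7, Clec3b at 10.7 and Gpm6b at 12.8 CPM, and Gdf10, a relative of the bone morphogenetic proteins, was lower there (17.7 CPM) than in Stroma7 (37.3 CPM). The other 4 genes were at a higher level in Stroma5, namely Cxcl14 at 619.8 against 164 CPM, Postn at 175 CPM against 28.6 CPM, Ptn (pleiotrophin, a growth factor) at 161 against 25.8 CPM and Nrep (a neuronal regeneration-related protein) at 46.4 against 12.1 CPM. With the clusters weighted equally instead of by cells, Cyp26b1 had a log2 ratio of 0.80 and Cilp and Postn ratios of -5.56 and -4.62. With every cell thinned to 1000 UMIs, Myoc came to 3.11, Dpt to -3.98 and Clec3b to -5.95.

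**Figure D3:**
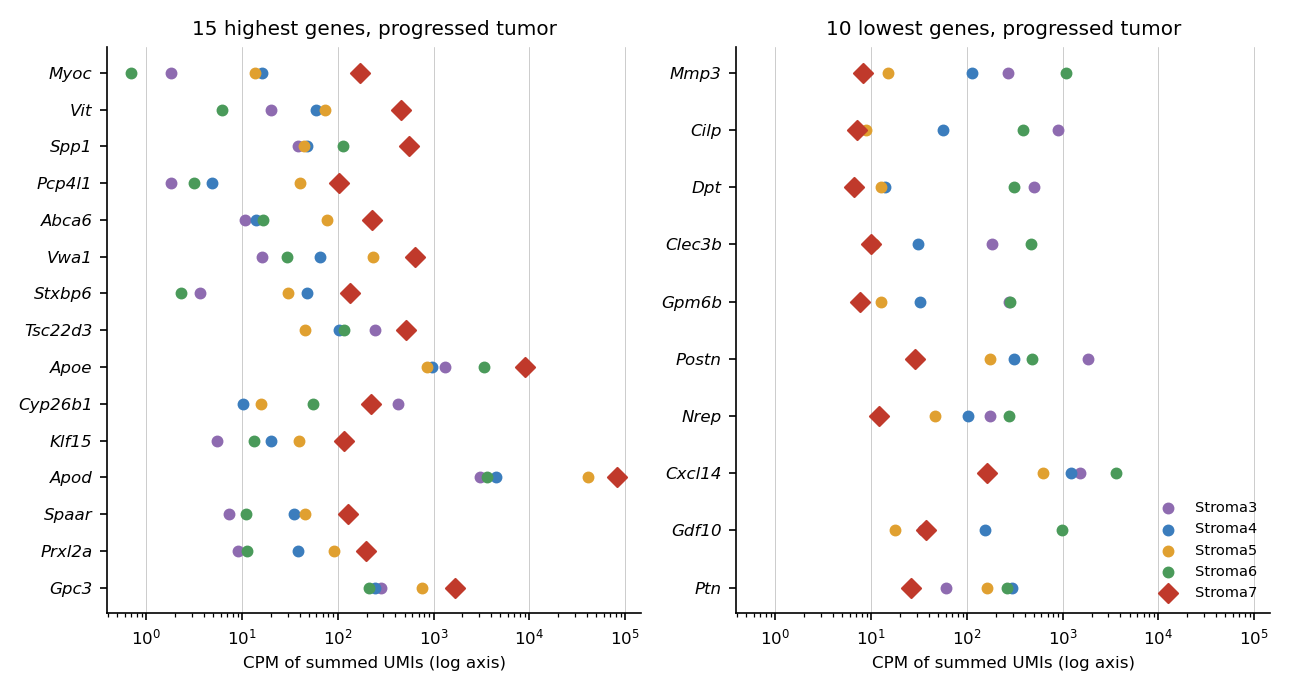
Levels of the 15 highest and 10 lowest genes of Stroma7 in CPM of summed UMIs (horizontal log axis) in the progressed tumor, with diamonds for Stroma7 and circles for Stroma3 to Stroma6. Stroma7 lies beyond the 4 other clusters for 14 of 15 genes on the left and 9 of 10 on the right, with Cyp26b1 and Gdf10 as the exceptions.

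Collagens were low as a group. Of 8 fibrillar collagens at 20 CPM or more, 7 were at least 2-fold lower in Stroma7 (5.88% of all genes were) and 0 higher, with a median log2 ratio of -1.75 beside -0.17 over all genes. Their sum was 8793 CPM against 29761 CPM, and the lowest of the 4 other clusters, Stroma4, stood at 18210 CPM. Col1a2 was at 3163 against 11019 CPM and Col3a1 at 2767 against 9513 CPM. Col11a1 was the exception, at 47.8 against 52.4 CPM. Of 12 other collagens 9 were lower and 0 higher, led by Col12a1 (4.94 against 64.2 CPM) and the basement membrane chains Col4a1 and Col4a2 (211 and 255 against 1204 and 1254 CPM).

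Enzymes that crosslink collagen followed the same direction. Of 8 measured, 6 were at least 2-fold lower and 0 higher, with a median log2 ratio of -1.62, where 5.88% of all genes were lower and 2.41% higher. Lox, lysyl oxidase, was at 6.04 against 48.5 CPM, Loxl1 at 59.9 against 240 CPM, and Tgm2, a transglutaminase, at 30.2 against 97.7 CPM. Plod3 and Loxl3 stayed within 2-fold, at 36.2 against 55.7 CPM and 21.97 against 31.5 CPM.

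The small leucine-rich proteoglycans were split. Their sum was 45437 against 21775 CPM, a log2 ratio of 1.06, most of it from Dcn (36846 CPM) and Lum (lumican, 6388 against 3381 CPM). Bgn, biglycan, was lower at 1511 against 3223 CPM, and Prelp, Podn, Ogn and Aspn were within 2-fold. The list's 7 measured genes had a median of 0.24, with 1 higher and 1 lower, and the sum's log2 ratio was just under 1, at 0.999 with equal weight per cell and 0.99 with cells thinned to 1000 UMIs.

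Elastic fibre genes were mixed as well, with 1 of 16 at least 2-fold higher and 6 lower, beside 2.41% and 5.88% of all genes. A single higher gene is near that background. Eln (elastin) was at 1.65 against 64.7 CPM and Mfap4 at 1.65 against 54.1 CPM. Efemp1 (fibulin 3) was at 290 against 86.1 CPM. The Ltbp1 ratio, at 69.2 against 34.7 CPM, fell just short of 2-fold.

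Proteases and their inhibitors showed 6 of 12 genes lower and 0 higher, beside 5.88% and 2.41% of all genes. Besides Mmp3 these included Adamts5 (13.2 against 111 CPM), Adamts12 (14.8 against 83.1 CPM) and Timp1 (61.5 against 293 CPM). The most abundant members, Timp3 (1957 against 1383 CPM) and Mmp2, gelatinase A (1112 against 834 CPM), were within 2-fold.

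Genes of activated fibroblast states were lower or split. Over all 6390 genes 2.41% were higher and 5.88% lower, which holds as the background for these lists and each one below. The matrix-remodelling list, with markers of activated tumor fibroblasts such as Lrrc15, Postn, Cthrc1 and Tnc, had 7 of 11 genes lower and 0 higher and a sum of 685 against 1865 CPM, while Stroma3 stood at 4704 CPM. Tnc, tenascin C, was at 2.197 against 44.0 CPM and Fn1, fibronectin, at 311 against 859 CPM. Contractile genes had 3 of 7 lower and 1 higher, and their sum was 991 against 1021 CPM (log2 ratio -0.04, -0.11 to 0.03), changing sign in 2 of 9 alternatives. Acta2, smooth muscle actin and the usual marker of myofibroblasts, was at 2.197 CPM (4 UMIs) against 47.4 CPM, whereas Mylk, myosin light chain kinase, was at 411 against 153 CPM.

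Markers of the dermal niches gave a mixed picture. Adventitial genes had 3 of 5 lower and 0 higher, with Pi16 at 13.2 against 73.1 CPM and Ly6c1 at 10.4 against 83.3 CPM. The list's sum had a log2 ratio of -1.01, which 5 of 9 alternatives placed within 2-fold. It was 515 CPM in Stroma7 and about as low in Stroma5 (555 CPM), against 999 to 1596 CPM in Stroma3, Stroma4 and Stroma6. The dermal papilla list, of which 0 genes passed the filter, was at 37.3 CPM against 41.2 CPM in all other Stroma cells, with 671 CPM in Stroma3 and 11.7, 31.8 and 9.49 CPM in Stroma4, Stroma5 and Stroma6. Its log2 ratio of -0.14 became -2.28 with clusters weighted equally. Corin, a serine protease, made up most of it in Stroma7 (28.0 CPM). Papillary genes summed to 160 against 162 CPM. Of the reticular and hypodermal genes, Mgp (10489 against 7901 CPM) and Cd34 (517 against 388 CPM) were within 2-fold, and Gpx3 and Ly6a were lower, at 78.0 against 255 CPM and 107 against 345 CPM. The sum of this last list was positive (0.33) and its median negative (-0.64).

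Inflammatory and complement genes were lower or alike against the pooled other Stroma cells, but not against each cluster. The inflammatory sum, 1894 CPM, lay above Stroma3 (1813) and Stroma4 (1594) and below Stroma5 (4218) and Stroma6 (2713). The complement sum, 2050 CPM, lay above Stroma3 (1726) and Stroma5 (1528) and below Stroma4 (3100) and Stroma6 (4366). Of 9 inflammatory genes measured, 3 were lower and 0 higher: Cxcl12, a chemokine of stromal cells, at 95.6 against 442 CPM, Il6 at 35.1 against 113 CPM and Il33 at 30.8 against 78.0 CPM. Cxcl1, a neutrophil chemokine, was at 766 against 854 CPM. Of 8 complement genes 4 were lower, among them C3, the central component, at 5.49 against 48.9 CPM, and Cfb, factor B, at 19.2 against 108 CPM. Serping1, the C1 inhibitor, was at 1522 against 1964 CPM.

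Secreted signals and their modulators varied by family. In the IGF axis 3 of 6 genes were lower and 0 higher, with Igfbp5 at 1.65 (3 UMIs) against 90.0 CPM, Igfbp7 at 1150 against 3013 CPM and Igf1 within 2-fold at 260 against 483 CPM. The sum of this list, at -1.04, lay within 2-fold in 4 of 9 alternatives and was -0.87 with Apod, Dcn and Gsn out of the totals. Among 6 growth factors, Hgf (8.79 against 34.7 CPM) and Kitl, the ligand of Kit (40.1 against 100.4 CPM), were lower and none was higher. Bambi, a decoy receptor of the TGF-beta family, was at 416 against 134 CPM, Bmp7 at 166 against 92.6 CPM and Id2 at 31.9 against 84.4 CPM. Their list, of bone morphogenetic protein ligands, antagonists and targets, summed to 1913 CPM in Stroma7 and to a like 1919 CPM in Stroma5. Stroma3, Stroma4 and Stroma6 stood at 872 to 1237 CPM. Frzb, a secreted Wnt antagonist, was at 155 against 42.1 CPM and was the only one of 4 measured Wnt genes past 2-fold.

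Of 8 TGF-beta targets 4 were lower and 0 higher, with Pmepa1 at 12.6 against 64.0 CPM. Tgfbi, the most abundant of them, was at 3006 against 2367 CPM, so that the sum had a log2 ratio of 0.19 and the median one of -0.97. The sum, 3500 CPM, lay below Stroma5 (5289) and above Stroma3, Stroma4 and Stroma6 (1325 to 2836). The receptors Pdgfrb, Tgfbr2, Fgfr1 and Egfr were within 2-fold, and of 12 receptors measured Il1r1 alone was lower, at 48.9 against 113 CPM. A single lower receptor is near the 5.88% over all genes.

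The MAPK sum stayed close to that of the pooled other stromal cells, while the immediate early sum was higher. The 9 MAPK target genes of the study summed to 1529 against 1583 CPM, a log2 ratio of -0.05 (-0.11 to 0.01). In Stroma3 to Stroma6 the sum ranged from 535 to 1921 CPM. Of 7 measured genes 2 were higher and 0 lower, beside 2.41% and 5.88% of all genes. Within the list Etv1, an Ets factor (79.6 against 24.4 CPM), and Spry4, a feedback inhibitor (93.4 against 41.1 CPM), were at least 2-fold higher, while Phlda1, the most abundant member, was at 834 against 1094 CPM. The median of the 7 measured genes was 0.29, opposite in sign to the sum, whose direction changed in 3 of 9 alternatives. Immediate early genes, which respond to growth signals and to cell dissociation alike, summed to 24448 against 17588 CPM, a log2 ratio of 0.48. The 4 other clusters stood at 15120 to 20151 CPM. Btg2, an antiproliferative gene, was the single one of 16 at least 2-fold higher, at 1061 against 504 CPM, a count near the 2.41% over all genes. Fos was at 8090 against 4650 CPM.

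Interferon-stimulated genes summed to 404 against 396 CPM, and 0 of 9 measured were past 2-fold in either direction. For MHC class I genes the sum was 3047 against 3486 CPM, with B2m at 1658 against 2354 CPM and Psmb9, an immunoproteasome subunit, at 49.4 against 23.5 CPM. The median log2 ratio of the 8 measured genes was 0.47, opposite in sign to that of the sum (-0.19), with 1 higher and 0 lower. MHC class II genes summed to 275 CPM, beside 296 to 353 CPM in the 4 other clusters and 52546 CPM in macrophages. Hypoxia and heat shock genes held 1 of 6 and 0 of 4 past 2-fold. The 11 cell cycle genes were all under the filter and summed to 37.3 against 54.3 CPM.

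Dermal lineage factors had 1 of 12 higher and 4 lower, beside 2.41% and 5.88% of all genes. A single higher gene is near that background. Meox1, a homeobox factor, was at 700 CPM (662 to 739) against 266 CPM, next highest in Stroma5 at 495 CPM. Osr1 (9.89 against 79.4 CPM), Prrx2 (15.9 against 56.3 CPM), Twist1 (24.7 against 69.5 CPM) and En1 (15.9 against 38.9 CPM) were lower. Tbx15, Tbx18, Twist2 and Meox2 were within 2-fold.

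**Figure D4:**
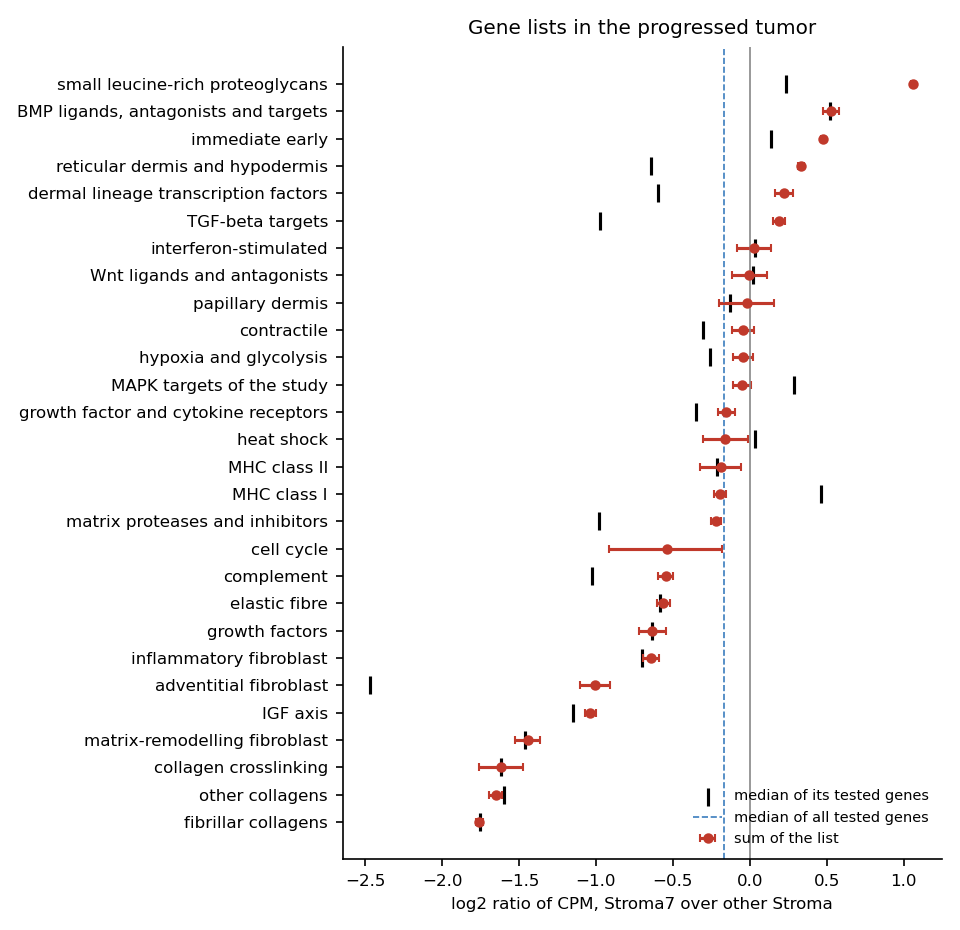
Log2 ratio of CPM of Stroma7 over the other Stroma cells in the progressed tumor (horizontal axis) for the 28 gene lists, with circles for the summed list, bars for its exact 95% interval, black ticks for the median of its measured genes and a dashed line for the median of all 6390 genes. The collagen, crosslinking and matrix-remodelling lists lie at -1.44 or lower, and the proteoglycan sum at 1.06 is the highest.

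The few Stroma7 cells of the other tumors were compared with the stromal cells of their own tumor. They numbered fewer than 20, so no ratios were formed and levels are given with counting intervals only. In the untreated tumor 11 of the 15 genes that were highest in the progressed tumor had an interval wholly above that of the other stromal cells, against 4.54% of 6407 genes in that direction. The level was higher for 14 of the 15 and Klf15 was at 0 UMIs. Apod was at 69862 CPM (68017 to 71745) against 8163 CPM, Gpc3 at 1620 CPM (1350 to 1929) against 373 CPM and Apoe at 5092 CPM (4603 to 5619) against 1459 CPM. Of the 10 lowest genes 9 had an interval wholly below, against 4.85% of genes. Gdf10 had 0 of 77767 UMIs, for which the floor of 3 UMIs stands at 38.6 CPM and the exact interval reaches 47.4 CPM, against 649.5 CPM in the other stromal cells. Since the authors clustered the 3 tumors together, these cells were given their name on the same genes.

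In the regressed tumor 6 cells with 6106 UMIs were measured, so the floor of 3 UMIs for a gene at 0 UMIs stands at 491 CPM and the exact interval reaches 604 CPM. Apod was at 41435 CPM (36486 to 46868) against 12804 CPM and Gpc3 at 3112 CPM (1873 to 4859) against 589 CPM, and these 2 of the 15 genes lay wholly above the other stromal cells, against 2.8% of 5178 genes. Apoe lay below them, at 1965 CPM (1015 to 3433) against 4054 CPM. By level alone, 8 of the 15 genes stood above the other stromal cells and 7 below, with 4 of the 15 at 0 UMIs. None of the 10 lowest genes lay wholly below, against 0.251% of genes. All 10 had a lower level, and 7 of them were at 0 UMIs. The difference between the 10 low genes and their surroundings was not detectable at this depth.

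The levels of some abundant genes in untreated and progressed Stroma7 are given side by side, with no test. Col1a1 was at 5555 CPM (5044 to 6104) in the untreated and 2351 CPM (2281 to 2423) in the progressed cells, and the 24 collagen genes took 2.50% and 1.14% of UMIs. In the untreated tumor the other stromal cells stood at 3.79%. Gsn was at 10956 CPM (10232 to 11717) and 24514 CPM (24287 to 24742), Apoe at 5092 and 9093 CPM, and Tsc22d3 at 141 CPM (70.6 to 253) and 512 CPM. Spp1 was at 1042 CPM (827 to 1295) and 554 CPM, and in the untreated tumor it was also high in the other stromal cells, at 557 CPM. The intervals do not cover the spread between cells, which for Gsn and Apoe was well above counting error in the progressed cells. These are 18 and 444 cells of 1 animal each, and a difference between animals, libraries and treatments cannot be told apart.

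**Figure D5:**
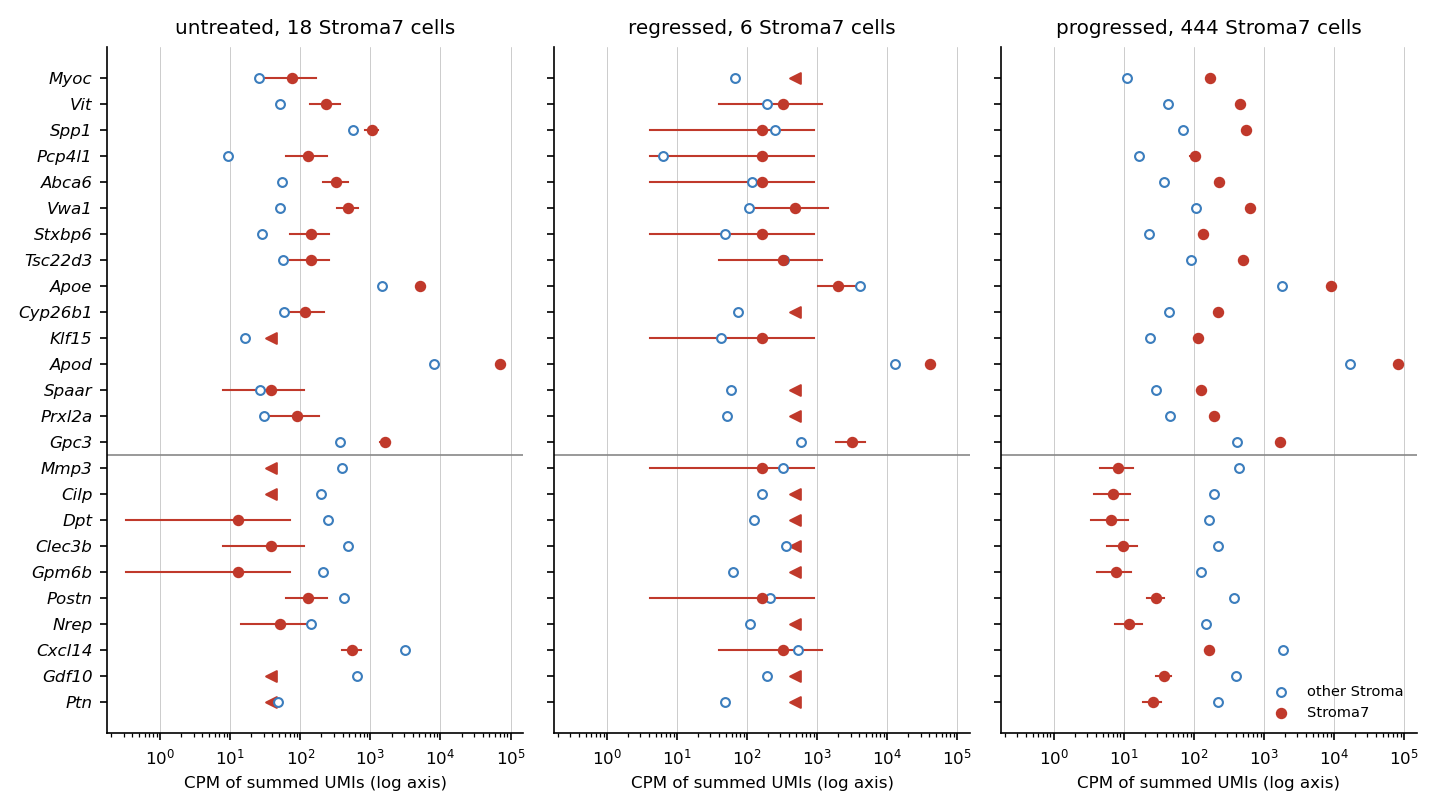
Levels of the 15 highest (above the line) and 10 lowest (below it) genes in Stroma7 (filled, with exact 95% intervals) and in the other Stroma cells (open) of each tumor, in CPM on a log axis, with a left-pointing triangle at the floor of 3 UMIs for genes at 0 UMIs. The untreated cells repeat most of the pattern with wider intervals, and in the 6 regressed cells only Apod and Gpc3 lie clearly above the other stromal cells.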

How the data were processed

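The authors deposited 1 table per tumor of counts of UMIs per gene and cell, made from Chromium 3′ v2 libraries with GSNAP on GRCm38 (mm10), from uniquely mapping sense reads over exons, and clustered the cells with Seurat 2.2.0 (per the labels and the study's methods). Cells under 300 UMIs had been left out, and the annotation release is not given in the sources used here. The deposited cell table gives cluster names and cluster numbers (unit other) and counts of UMIs and genes per cell, and the table sums exceeded those totals by 5.02%. Entrez IDs were matched to symbols through RefSeq (GRCm38.p6) for 31129 of 36530 features, and the other 5401, with 3.71% of UMIs, stayed in the totals. Id3 and C4b have the same counts as other features and may be counted more than once.

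Raw counts were summed per group and divided by the total. Genes were called past 2-fold among those with a mean of at least 20 CPM over both sums, a gene at 0 being set to 3 UMIs. The ratio and its interval were tested on simulated data that carried counting error only, so this check does not cover the spread between cells. Named genes were the 15 highest and 10 lowest ratios at 100 CPM or more, the 6 highest against the next cluster and the 8 most variable genes, leaving out ribosomal, mitochondrial, haemoglobin, Xist and Y-linked transcripts (Tsc22d3, Gpc3 and Gpm6b lie on X). Some items of the model and the gene lists are not reported here. Members and lists were chosen with earlier results of these data known. Scrublet marked 2, 1 and 3 cells of the 3 libraries as doublets, under 0.5%, so doublets were not removed. Shares of cells with a UMI are unthinned. Cell IDs carry no barcode sequence, so barcodes shared between libraries were not analysed here. Tools were Python 3.11.15, numpy 2.4.6, scipy 1.17.1, pandas 2.3.3 and edgeR for scaling factors.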

Additional observations from a re-analysis of the deposited data

How the results depend on the processing

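The 12 alternatives to the counts of 154 higher and 376 lower genes gave the following where they differed by over 1.5 times. With no filter on low genes there were 3053 higher and 1723 lower genes, at a mean of at least 50 CPM there were 83 and 162, and at 3-fold there were 48 and 150, the latter 2 by construction. Without the filter, a gene at 0 UMIs in Stroma7 is set to 3 UMIs and can be called higher. The red blood sum, at 0 against 11 UMIs, came to a log2 ratio of 1.24 in this way. Nothing is therefore read from the 3053 higher genes. With TMM scaling, which shifted the median log2 ratio up by 0.12, there were 188 and 295. Thinning to 1000 UMIs gave 180 and 561, close to the limit of 1.5 times, and the other alternatives 149 to 220 and 288 to 431. As a share of all cells in place of stromal cells, Stroma7 was 9.16% of the progressed tumor.

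None of the 32 named genes changed the sign of its ratio in 9 alternatives, and Cyp26b1 and Cst3 crossed 2-fold in 1 each (0.80 and 1.07, clusters weighted equally). Of 47 lists 15 changed sign in at least 1, among them the MAPK, contractile, papillary, interferon, hypoxia, heat shock, cell cycle, receptor, Wnt, immune and melanocyte sums. Scrublet doublets were not left out as planned, since so few were marked, and leaving out the 5% of cells with the highest scores, an alternative chosen after seeing the data, gave 156 and 390 genes. The planned counts of genes past 2-fold within the untreated tumor and between tumors were not made, with 18 and 6 Stroma7 cells, and only levels are given. Depth limits the regressed cells most. No paired analysis was possible because each group held 1 tumor.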

Other observations

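Further gene groups were looked at after the leading genes of Stroma7 had been seen, so their counts describe the cells and support nothing. Of 9 lipid carriers and ABC transporters at 20 CPM or more, 5 were at least 2-fold higher in Stroma7 than in the other Stroma cells of the progressed tumor and 0 lower. Over all 6390 genes 2.41% were higher and 5.88% lower, which holds as the background for each group here. Besides Apod, Apoe and Abca6 these were Abca8b (100.5 against 33.5 CPM) and Abca9 (79.6 against 31.0 CPM), while Abca1 (23.6 against 25.2 CPM) was alike. Inhibitors of cyclin-dependent kinases had 4 of 6 higher and 0 lower. Cdkn2a, which encodes p16 and p19, was at 605 CPM (569 to 641) against 195 CPM and found in 80.6% of Stroma7 cells against 34.7% of the others and 6.49% of macrophages, Cdkn1a (p21) was at 466 against 172 CPM and Cdkn2b at 319 against 152 CPM. At 1000 UMIs per cell the shares for Cdkn2a were 43.6%, 12.8% and 0.904%. Stroma5 was next for Cdkn2a, at 354 CPM. The untreated Stroma7 cells held 424 CPM (292 to 596) of Cdkn2a against 122 CPM in their neighbours.

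Of 6 measured genes associated with nerve 3 were higher and 0 lower. The 10 genes of this group summed to 779 CPM in Stroma7 and 618 CPM in Stroma5. In Stroma3, Stroma4 and Stroma6 they summed to 163 to 326 CPM, so the high level was shared in large part with Stroma5. Ngfr, the low-affinity neurotrophin receptor, was at 228 against 89.9 CPM, S100b at 252 against 80.7 CPM and Sox8 at 144 against 38.7 CPM, whereas Sox10, which defines Schwann cells and melanocytes, was at 1.65 CPM. The 6 Schwann genes summed to 55.5 against 52.5 CPM. Acute-phase Saa1 was at 880 CPM (838 to 925) against 258 CPM and Saa2 at 161 against 41.3 CPM, with Saa1 also high in untreated Stroma7 (1813 CPM, 1526 to 2138, against 260 CPM) and in regressed Stroma7 (1802 CPM, 899 to 3223, against 129 CPM). In the progressed tumor the 4 serum amyloid A genes summed to 1046 CPM in Stroma7 and 644 CPM in Stroma5. Stroma4 stood at 231 CPM, and Stroma3 and Stroma6 at 43.5 and 50.9 CPM. Genes induced by glucocorticoids were split, with 3 of 12 higher (Tsc22d3, Klf15 and Ddit4, the last at 219 against 63.8 CPM) and 2 lower, the metallothioneins Mt1 and Mt2 (676 against 2186 and 297 against 939 CPM), which of the 4 other clusters were high in Stroma6 only (5071 and 2065 CPM). Of 8 glutathione enzymes Gstm1 (512 against 186 CPM) and Gstm5 (751 against 275 CPM) were higher and Gpx3 lower.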
